A study of Mus musculus with 16 samples.

Results

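Homologous recombination repairs a broken DNA duplex by copying an intact one, and the Fanconi anemia pathway unhooks crosslinks between DNA strands and hands the resulting breaks to recombination. Both work mainly during and after the copying of DNA, and a T cell that has met its antigen passes from rest into rapid division. The genes described here are 36 named members of these pathways: the BRCA1 and BRCA2 proteins with their partners, strand invasion factors, the Fanconi core complex and its FANCD2 and FANCI substrate, end resection factors, junction nucleases, replication protein A, and the ATR and CHK1 checkpoint. They were taken by symbol from a list drawn up with earlier results of these data known. All 36 were found under their own symbols among the 34573 symbols of the counts table, and all 36 passed the expression filter that kept 14332 genes for testing. The lowest count of any of them in any library was 10.

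The measurements are bulk RNA-seq of CD8+ T cells from C57BL/6 mouse spleen, taken in 4 states of activation in culture with 3 libraries each. Tn are naive cells at day 0, sorted as CD8+, CD44- and CD62L+. The other states were stimulated with antibodies to CD3e and CD28, each at 10 μg/ml, and given IL-2 at 300 U/ml from the next day. Teff1 (day 2) and Teff2 (day 5) were sorted as PD-1+ and TIM-3-, and Tex (day 5) as PD-1+ and TIM-3+; PD-1 and TIM-3 are inhibitory receptors of activated T cells. Each RNA sample came from 0.2 M cells. No genotype other than the strain is given, and the labels do not say whether replicates came from separate animals, so p-values measure the spread between these libraries.

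Libraries held 14.7 to 21.2 M counts. The sort was visible in Havcr2, which encodes TIM-3, at 34.6, 10.9 and 38.4 CPM (counts per 1 M counts of the TMM-scaled library size) in Tex and at 0.258 to 0.612 CPM in Teff2. The naive libraries carried uneven amounts of transcripts from other cells. Summed over 7 B cell markers they held 1215, 579 and 2008 CPM in replicates 1, 2 and 3, against 89.3 to 305 CPM in the activated libraries. Over 4 antigen presentation genes the naive sums were 1343, 112 and 2028 CPM, against 29.1 to 121 CPM in activated cells. Over 7 macrophage and monocyte markers they were 243, 54.8 and 120 CPM in Tn and at most 1.27 CPM afterwards. The 36 genes themselves summed to 788, 829 and 832 CPM in the same 3 naive libraries, but single genes differed in their order. Rad54l, Rad51ap1, Chek1, Rad54b, Exo1 and Fancd2, which had the largest rises by day 2, were lowest in replicate 2, as these marker sums were. Brca1, the next largest rise, was lowest in replicate 1, which was the lowest in 15 of the 36. The part of other cells in these levels was not tested. None of these B cell, antigen presentation, macrophage and monocyte markers was at 0 in all 3 naive libraries. Cd8a stood at 715 to 1536 CPM over the 12 libraries. NK cell markers, 5 genes, summed to 52.0, 2.86 and 114 CPM in the naive libraries and to 0.570 to 9.34 CPM in activated ones. Erythroid markers, 5 genes, had another order, with 156, 147 and 69.2 CPM in the naive libraries and at most 7.2 CPM in activated ones. The CD4 and regulatory T cell list, Cd4, Foxp3, Ctla4 and Icos, went the other way, with sums of 171, 51.8 and 91.7 CPM in the naive libraries and of 149 to 728 CPM after stimulation. Ctla4 and Icos are also induced in CD8+ T cells by activation. In bulk RNA, fewer cells of a type and less RNA per cell cannot be told apart.

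By day 2 most of the pathway stood higher than in naive cells. Tn and Teff1 also differ in IL-2, time in culture and sort, which cannot be told apart from stimulation here. Between Tn and Teff1, 30 of the 36 genes rose and 1, Mus81, fell at an adjusted p under 0.05 (edgeR's quasi-likelihood test, Benjamini-Hochberg over 14332 genes), while 5 were not called. Of all genes tested, 24.5% rose and 24.5% fell. The median log2 fold change of the 36 genes was 1.61, against -0.06 over all genes. Of the 30 that rose, 26 did so by a log2 fold change of at least 1, a size reached by 15.9% of all genes. The rise was at least 4 in 7 of them, as in 320 of all 14332 genes. The summed level rose from 788 to 832 CPM in Tn to 2357 to 2452 CPM in Teff1. With Tn replicates 1 and 3 left out, the libraries with the most B cell and antigen presentation transcripts, the median of the 36 genes was 1.59. The CD4 and regulatory T cell list was also higher in Teff1 than in naive cells, at 425, 553 and 445 CPM, and its part in the rise was not tested. The rise was uneven, from about 36-fold for Rad54l to log2 fold changes near 0 for Fancc, Fance and Atrip.

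**Figure D1:**
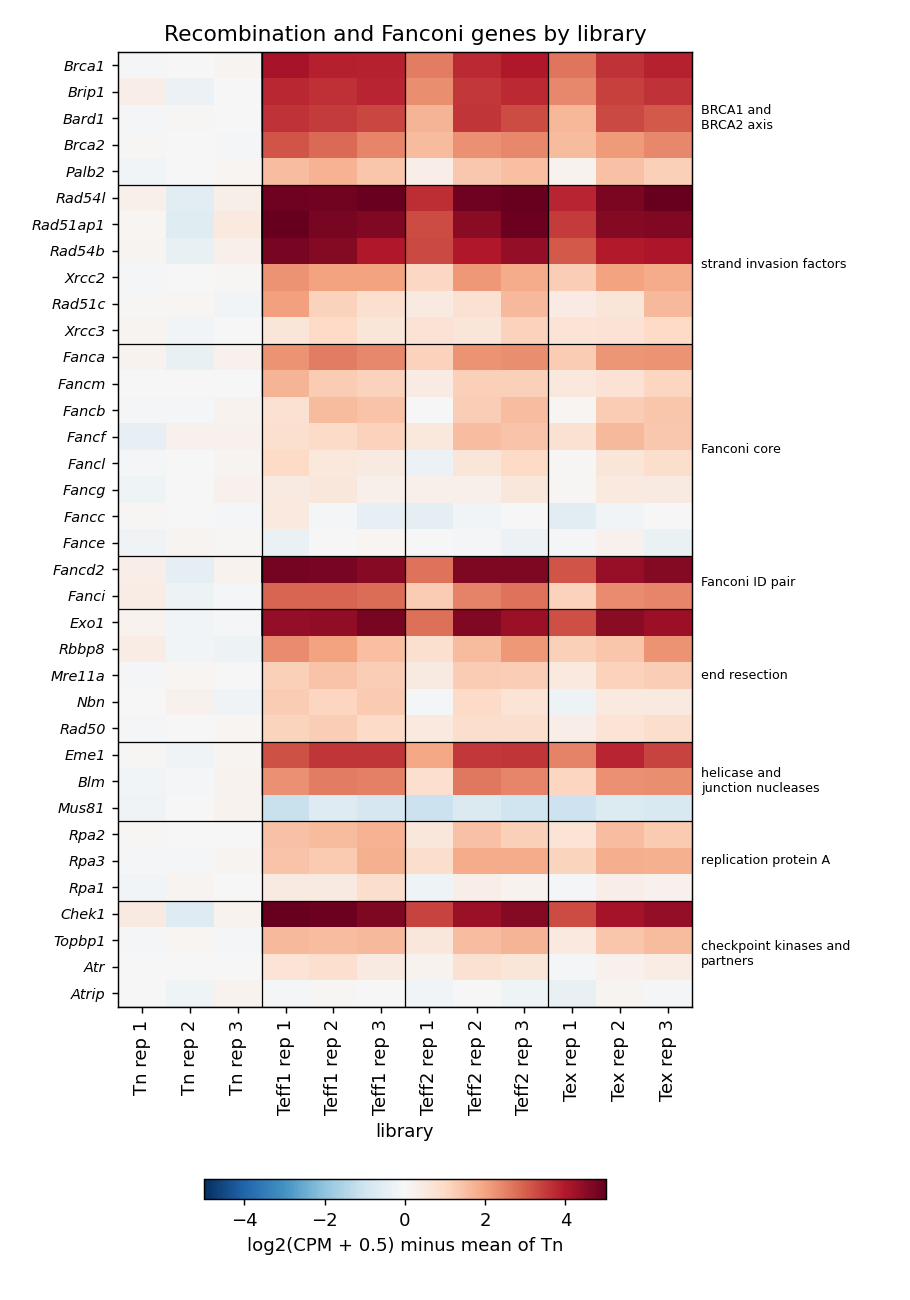
Level of each of the 36 genes in each of the 12 libraries, as log2(CPM + 0.5) minus the mean of the 3 Tn libraries, with genes grouped by role (red higher, blue lower than Tn). Chek1, Rad54l, Rad51ap1, Fancd2 and Exo1 are the darkest in Teff1, Mus81 is blue in every activated library, and the first replicates of Teff2 and Tex are paler than the other libraries of their groups.

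The BRCA1 and BRCA2 axis rose as a whole, 5 of 5 genes. BRCA1 and its partner BARD1 form a ubiquitin ligase that promotes recombination, PALB2 links BRCA1 to BRCA2, and BRCA2 prepares single-stranded DNA for strand invasion. Brca1 stood at 5.44, 5.86 and 6.45 CPM in Tn replicates 1, 2 and 3 and at 111, 94 and 91.7 CPM in Teff1. Every Teff1 library was above every Tn library, a 16.7-fold rise (log2 fold change 4.06, SE 0.39, adjusted p = 1.97e-05). Brca2 went from 11.6, 10.9 and 10.5 CPM to 101, 80.7 and 61.3 CPM, a 7.37-fold rise with the same separation of the groups. Brip1, a helicase that binds BRCA1, rose 15.3-fold and Bard1 12.3-fold. Palb2 had the smallest rise of this group, 3.05-fold (log2 fold change 1.61, SE 0.35, adjusted p = 0.00291).

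The strand invasion factors also all rose, 6 of 6, and include 3 of the 4 largest rises. RAD54L and RAD54B are DNA translocases that act during strand invasion, and the product of Rad51ap1 stimulates the same step. Rad54l, the largest rise of the 36, stood at 2.12, 1.02 and 2.2 CPM in the naive libraries and at 64.4, 62.7 and 67.1 CPM in Teff1. The 3 Teff1 libraries differ from each other by less than 5 CPM, and the rise was 36.3-fold (log2 fold change 5.17, SE 0.46, adjusted p = 1.31e-05). Rad51ap1 went from 2.05, 1.09 and 2.9 CPM to 85.1, 63.2 and 58.4 CPM, a 34.2-fold rise. Rad54b went from 1.19, 0.681 and 1.34 CPM to 40.8, 36.4 and 24.5 CPM, a 31.6-fold rise. In each of these genes the highest naive library was far below the lowest Teff1 library.

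Xrcc2, Xrcc3 and Rad51c, whose products act early in strand invasion, rose less. Xrcc2 rose 4.55-fold and Xrcc3 1.71-fold. Rad51c stood at 2.12, 2.18 and 1.83 CPM in naive cells and at 9.99, 5.09 and 3.88 CPM in Teff1. The groups did not overlap, but the first Teff1 library was the highest of its group and the rise of 3.09-fold (adjusted p = 0.0169) lost its call without it (log2 fold change 1.15, adjusted p = 0.0722) and without Tn replicate 3 (adjusted p = 0.0567).

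Of the Fanconi genes, 2 of 2 of the substrate and 4 of 8 of the core complex rose. Core against substrate was not tested. The core complex is a multi-subunit ubiquitin ligase in which FANCL is the catalytic subunit and FANCM the DNA translocase that anchors it, and its target is the pair FANCD2 and FANCI. Fancd2 stood at 3.38, 1.7 and 2.96 CPM before stimulation and at 84.4, 81.4 and 72 CPM in Teff1. No libraries of the groups came near each other, and the rise was 29.6-fold (log2 fold change 4.88, SE 0.56, adjusted p = 5.85e-05). Fanci rose 7.71-fold, from 5.96 ± 1.47 to 46 ± 2.21 CPM (SD, n = 3). The log2 ratio of Fanci to Fancd2 in a library, a pair chosen after its values were seen, went from 1.19 ± 0.31 in Tn to -0.78 ± 0.05 in Teff1 (SD, n = 3).

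Of the 8 core genes, 4 rose, none fell and 4 were not called. Fanca rose 5.43-fold, Fancm 2.68-fold, Fancb 2.61-fold and Fancf 2.0-fold, and their adjusted p ran from 0.000202 to 0.0256. Fancb stood at 4.04, 4.22 and 5.05 CPM in the naive libraries and at 7.8, 14.3 and 12.7 CPM in Teff1. Fancf stood at 3.98, 6.47 and 6.45 CPM in naive cells and at 9.9, 11.1 and 12.7 CPM in Teff1. Neither pair of groups overlapped, and both calls were lost when single libraries were left out (adjusted p of 0.0620 to 0.0771 for Fancb without Tn replicate 1 or 2 or Teff1 replicate 2 or 3, and of 0.0529 to 0.0943 for Fancf without Tn replicate 1 or Teff1 replicate 2 or 3).

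The other 4 core genes were not called over the 12 libraries, though Fancg and Fancl were called higher with the first replicates of the 3 activated states left out (adjusted p = 0.0412 and 0.0395) and with only the 6 libraries of the 2 groups (adjusted p = 0.0467 and 0.0278). Fancc stood at 18.8, 18.4 and 17.7 CPM before stimulation and at 26, 17.1 and 13.7 CPM in Teff1, with the Teff1 libraries on both sides of the naive ones. Its log2 fold change was 0.05 (95% interval -0.49 to 0.59, adjusted p = 0.884), and its sign turned under upper-quartile scaling. Fance stood at 27.6, 34.6 and 32.7 CPM in the naive libraries and at 24.6, 30.8 and 34 CPM in Teff1, with overlapping groups and a log2 fold change of -0.09 (SE 0.19, adjusted p = 0.728). Fancg had 20.5, 24.4 and 27.8 CPM in naive cells and 33.3, 36 and 29 CPM in Teff1, all 3 above the naive libraries, and just missed the call (log2 fold change 0.43, SE 0.18, adjusted p = 0.0668). Fancl, the ligase subunit, had a log2 fold change of 0.72 (SE 0.34, adjusted p = 0.0986), with 7.23, 7.63 and 8.55 CPM before stimulation and 16, 11.6 and 10.8 CPM in Teff1.

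End resection, which trims a break to the single-stranded tail that strand invasion needs, rose in 5 of 5 genes. MRE11A, RAD50 and NBN form the complex that senses the break and starts the cut, RBBP8 (CtIP) activates it, and EXO1 is the nuclease that extends the tail. Exo1 stood at 1.92, 1.5 and 1.61 CPM in the naive libraries and at 45.3, 46.1 and 57.8 CPM in Teff1. That is a 29.6-fold rise with wide separation of the groups (log2 fold change 4.88, SE 0.50, adjusted p = 2.85e-05). The complex that starts the cut rose far less: Mre11a 2.47-fold, Nbn 2.33-fold and Rad50 2.16-fold. Rbbp8 went from 17 ± 4.31 to 68 ± 19.4 CPM (SD, n = 3), with a log2 fold change of 2.00 (SE 0.39, adjusted p = 0.00139).

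The junction nucleases gave the single fall. MUS81 is the catalytic subunit of a nuclease that cleaves branched recombination and replication intermediates, EME1 is its partner, and BLM is the helicase that dissolves such junctions without cutting them. Mus81 stood at 30.2, 35 and 39.1 CPM in naive cells, at 15.9, 22.1 and 19 CPM in Teff1, at 16.2, 20.6 and 17.1 CPM in Teff2 and at 16.7, 21.2 and 20.1 CPM in Tex. Every activated library lay below every naive library, and Teff1 was at 0.547 of the naive level (log2 fold change -0.87, SE 0.19, adjusted p = 0.00277). Eme1 went the other way, from 2.32, 1.91 and 2.47 CPM in Tn to 24.6, 31.8 and 32.3 CPM in Teff1, a 13.2-fold rise (adjusted p = 0.0001). Blm rose 5.59-fold, from 16.3 ± 2 to 91.1 ± 9.47 CPM (SD, n = 3).

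The log2 ratio of Eme1 to Mus81 within a library, a pair chosen after its values were seen, was -3.96 ± 0.25 in Tn and 0.64 ± 0.12 in Teff1 (SD, n = 3). Every day 5 library stayed above the naive ones, with 0.27 ± 0.87 in Teff2 and 0.36 ± 0.51 in Tex. The ratio of the checkpoint kinases also changed: the log2 ratio of Chek1 to Atr was -4.90 ± 0.70 in Tn and -0.39 ± 0.11 in Teff1. Lengths of the mRNAs were not used, so only the change of a ratio can be read, not which gene of a pair was the more abundant.

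**Figure D2:**
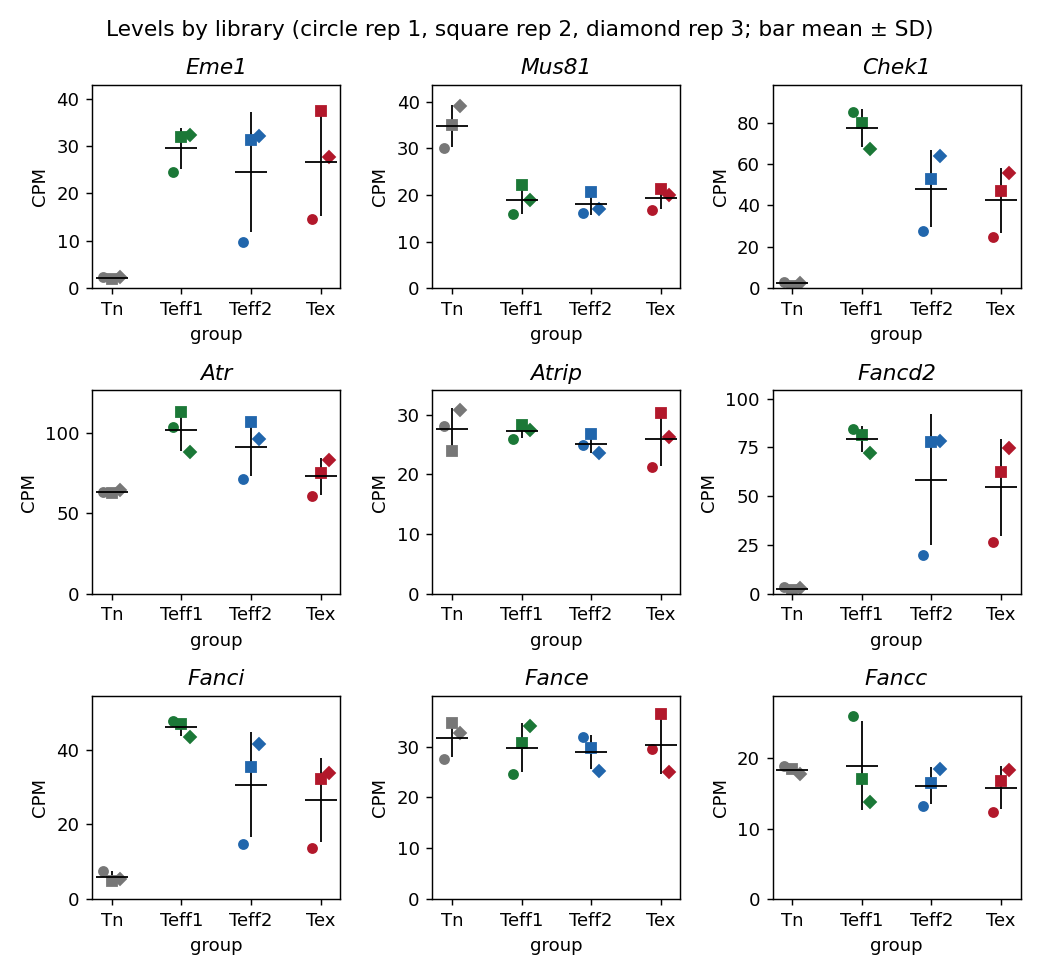
CPM of 9 genes in each library by group (circle replicate 1, square replicate 2, diamond replicate 3; horizontal bar the group mean, vertical bar its SD, n = 3; each axis starts at 0). Eme1, Chek1, Fancd2 and Fanci lie near 0 in Tn and high in Teff1, Mus81 is highest in Tn, Atrip, Fance and Fancc overlap between Tn and Teff1, and replicate 1 is the lowest in Teff2 and Tex for Eme1, Chek1, Atr, Fancd2 and Fanci.

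Replication protein A, the trimer that coats single-stranded DNA, rose in 3 of 3 genes but by unequal amounts. Rpa2 rose 3.07-fold and Rpa3 2.9-fold. Rpa1, the large subunit, stood at 147, 178 and 163 CPM in naive cells and at 219, 223 and 296 CPM in Teff1, a rise of 1.51-fold (log2 fold change 0.60, SE 0.19, adjusted p = 0.0207). The groups did not overlap, and the call was lost without Tn replicate 1, Tn replicate 3 or Teff1 replicate 3 (adjusted p of 0.0564 to 0.0844).

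The checkpoint genes showed the widest spread of any role. ATR is the kinase that senses coated single-stranded DNA through ATRIP, TOPBP1 activates it, and CHK1, encoded by Chek1, carries the signal that holds the cell cycle. Chek1 stood at 3.18, 1.23 and 2.47 CPM before stimulation and at 85.3, 79.8 and 67.1 CPM in Teff1, a 33.8-fold rise (log2 fold change 5.07, SE 0.45, adjusted p = 1.16e-05). Topbp1 rose 3.02-fold, from 126 ± 6.42 to 379 ± 7.68 CPM (SD, n = 3). Atr stood at 63.6, 62.9 and 64.4 CPM in the naive libraries and at 104, 113 and 88 CPM in Teff1, a rise of 1.6-fold (adjusted p = 0.00833). Atrip, its obligate partner, stood at 28.1, 23.9 and 30.8 CPM in naive cells and at 26, 28.2 and 27.5 CPM in Teff1. These groups overlapped, with the smallest change of the 36 genes (log2 fold change -0.02, 95% interval -0.39 to 0.35, adjusted p = 0.934).

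**Figure D3:**
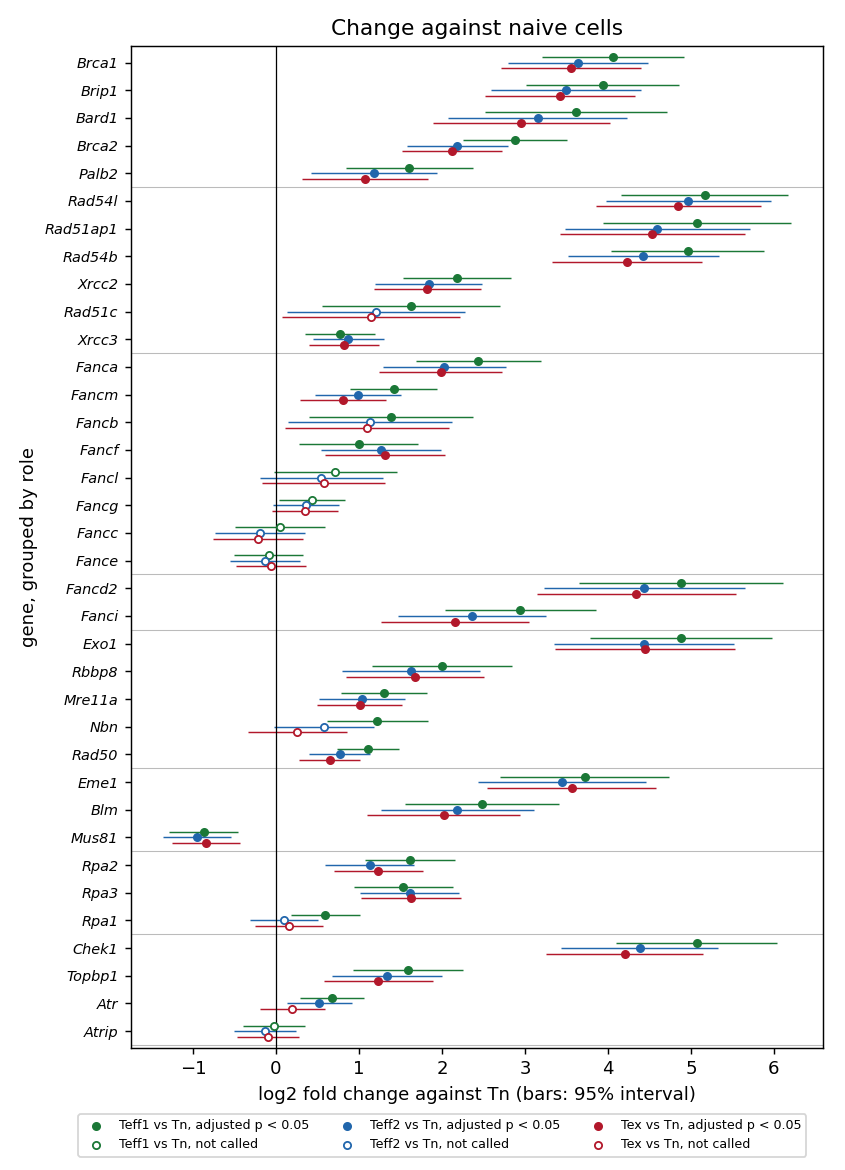
log2 fold change of each of the 36 genes against Tn in Teff1, Teff2 and Tex, with 95% intervals (filled points have an adjusted p under 0.05, open points do not). Mus81 lies left of 0 in all 3 comparisons, Fancc, Fance and Atrip straddle 0, and 25 genes are filled to the right of 0 in all 3.

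Other genes of the same processes, taken from a list of 56, showed a smaller share of calls. Of the 55 tested, 26 rose and 4 fell between Tn and Teff1, with a median log2 fold change of 0.43. Fignl1, Parpbp, Rad51b and Clspn had log2 fold changes of 4.96, 4.74, 4.73 and 4.70. Claspin, encoded by Clspn, is the adaptor through which ATR reaches CHK1. Beside Mus81, the genes that fell included Eme2 (log2 fold change -1.65, SE 0.42, adjusted p = 0.00666), which encodes the alternative partner of MUS81. Ercc4 fell by 0.93 on the log2 scale (SE 0.13, adjusted p = 0.000225) and Slx1b by 0.72 (SE 0.26, adjusted p = 0.0353). Both encode catalytic subunits of structure-specific nucleases. Gen1, which encodes a Holliday junction resolvase, rose (log2 fold change 2.51, SE 0.51, adjusted p = 0.0018). The fourth fall was Uimc1, at -0.39, which encodes a ubiquitin-binding subunit of a BRCA1 complex.

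Of 17 end joining genes, which act in the repair routes that rejoin ends without a template, 8 rose and 1 fell, with a median of 0.53. Polq, the polymerase of microhomology-mediated joining, had the largest log2 fold change (2.98, SE 0.44, adjusted p = 0.000275). Polm fell by 0.80 on the log2 scale (SE 0.20, adjusted p = 0.0057). All 35 S phase genes rose, with a median of 2.88, and all 26 G2 and M phase genes rose, with a median of 4.84. The part of these cell cycle genes in the rise of the recombination genes was not tested. Under upper-quartile scaling 24 of the 55 other recombination genes rose and 5 fell, and 7 end joining, 35 S phase and 25 G2 and M phase genes rose.

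Promoters were read for the genes that RefSeq's table covers, 29 of the 36 with 31 promoters (assembly GRCm38.p6), to show what letters stand before genes that moved together and before the gene that fell. Rad54b, Exo1, Fancd2, Xrcc2, Rad50, Nbn and Rbbp8 were not covered, so the shares and medians given with the motifs leave them out. Motifs were searched on both strands in the 250 bases before the start. The E2F-type letters, TTTCCCGC, TTTGGCGC, TTTCGCGC or TTTGCCGC, differ from each other only in the middle and so cannot match at the same place on 1 strand, though TTTCGCGC can overlap its own reverse complement. No match of these letters overlapped another motif in the promoters read. They were present in 4 of 31 promoters (12.9%), against 3.29% of 11831 promoters of tested genes. Among 3027 promoters of genes called higher in Teff1 than in Tn the share was 4.99%. The 4 genes are shown first, each 5′ to 3′ on its own strand and ending at the base before the start, with E2F-type and CCAAT matches on either strand in capitals.
Bard1 (chr1:71102973-71103222, minus strand): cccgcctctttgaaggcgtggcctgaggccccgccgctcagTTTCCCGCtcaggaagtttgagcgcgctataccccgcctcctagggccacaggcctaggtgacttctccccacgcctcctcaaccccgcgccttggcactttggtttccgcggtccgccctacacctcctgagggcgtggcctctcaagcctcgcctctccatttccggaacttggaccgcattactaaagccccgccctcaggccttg
Brca2 (chr5:150522371-150522620, plus strand): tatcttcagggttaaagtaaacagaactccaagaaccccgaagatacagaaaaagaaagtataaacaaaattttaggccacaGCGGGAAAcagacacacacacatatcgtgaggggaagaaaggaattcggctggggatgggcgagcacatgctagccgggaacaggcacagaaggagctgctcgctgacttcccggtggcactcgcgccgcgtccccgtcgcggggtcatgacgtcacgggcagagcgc
Topbp1 (chr9:103305177-103305326, plus strand): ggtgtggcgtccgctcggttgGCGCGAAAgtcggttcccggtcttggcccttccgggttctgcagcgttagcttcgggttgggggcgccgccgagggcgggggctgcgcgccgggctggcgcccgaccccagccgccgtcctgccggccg
Fancg (chr4:43010302-43010451, minus strand): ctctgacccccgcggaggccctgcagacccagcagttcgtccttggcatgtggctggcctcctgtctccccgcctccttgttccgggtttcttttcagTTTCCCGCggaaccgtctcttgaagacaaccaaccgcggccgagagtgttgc
Counted from the start, the match lies at -209 to -202 in Bard1, at -168 to -161 in Brca2 (on the opposite strand), at -129 to -122 in Topbp1 (on the opposite strand) and at -52 to -45 in Fancg. None of these 4 promoters holds CCAAT in the 250 bases.

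For contrast, the next lines give the largest rise, Rad54l, a checkpoint gene with a similar rise, Chek1, and the gene that fell, Mus81, 150 bases each.
Rad54l (chr4:116123690-116123839, minus strand): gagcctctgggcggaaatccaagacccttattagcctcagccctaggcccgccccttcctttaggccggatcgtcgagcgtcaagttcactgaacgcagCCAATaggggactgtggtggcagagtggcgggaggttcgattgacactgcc
Chek1 (chr9:36726659-36726808, minus strand): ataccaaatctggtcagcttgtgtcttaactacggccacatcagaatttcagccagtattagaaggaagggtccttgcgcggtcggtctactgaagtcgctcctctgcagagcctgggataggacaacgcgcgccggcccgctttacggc
Mus81 (chr19:5488380-5488529, minus strand): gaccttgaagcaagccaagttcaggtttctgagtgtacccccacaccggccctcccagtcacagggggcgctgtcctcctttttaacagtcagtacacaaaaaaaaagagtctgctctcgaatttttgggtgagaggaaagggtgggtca
CCAAT, or ATTGG on the opposite strand, was present in 18 of 31 promoters (58.1%), which belong to 17 genes. The shares were 35.2% in promoters of tested genes and 38.3% in those of genes called higher in Teff1. It appears in Rad54l but not in Chek1 or Mus81. TTTGAA was present in 1 of 31 (3.23%), in Bard1, against 10.6% and 12.2%. The median log2 fold change from Tn to Teff1 was 2.24 in the 4 genes with E2F-type letters (range 0.43 to 3.62) and 1.53 in the 25 without. It was 1.42 in the 17 genes with CCAAT and 1.62 in the 12 without. These shares describe the windows only.

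From day 2 to day 5 the levels had not moved past the threshold. Between Teff1 and Teff2 none of the 36 genes was called by edgeR's quasi-likelihood test or by DESeq2, and the unadjusted p was under 0.05 for 3 genes in edgeR and 4 in DESeq2. In edgeR the unadjusted p was under 0.05 for 1707 of all 14332 genes. Over all genes 0.558% rose and 0.112% fell in edgeR, and 2.64% rose and 0.991% fell in DESeq2. The fold changes were nevertheless mostly below 0, in 33 of 36 genes, with a median log2 fold change of -0.36 against -0.00 over all genes. In 7 genes, Brca2, Chek1, Nbn, Fanci, Rpa1, Rpa2 and Rad50, every Teff2 library lay below every Teff1 library, a separation seen downward in 6.19% and upward in 8.39% of all genes. Rpa1 stood at 139, 202 and 183 CPM in Teff2, with a log2 fold change of -0.50 (SE 0.19, adjusted p = 0.301). Brca2 stood at 33.5, 56 and 60.6 CPM, with -0.70 (SE 0.27, adjusted p = 0.302), and Nbn at 18.6, 39.3 and 31.8 CPM, with -0.64 (SE 0.27, adjusted p = 0.371). The smallest changes were those of Fance (-0.04) and Fancg (-0.08), at 31.8, 29.7 and 25.3 CPM and 28.7, 29.2 and 35.4 CPM in Teff2.

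The size of that drop depended on the first replicate. In Teff2, replicate 1 lay below both other replicates in 33 of 36 genes, with a median log2 difference of -0.98 from their mean, and in Tex in 35 of 36 genes, with -0.73. Over all genes the first replicate was the lowest of its group in 37.8% (Teff2) and 37.6% (Tex). In Tn and Teff1 the median differences of these genes were 0.01 and 0.04. The G2 and M phase genes differed more in the same libraries, by -2.33 in Teff2 and -1.79 in Tex, and the S phase genes by -0.88 and -0.82. Without Teff2 replicate 1 the median log2 fold change from Teff1 to Teff2 was -0.09, and without the first replicates of all 3 activated states it was -0.01, with 22 of 36 genes below 0. The CD4 and regulatory T cell list was also lowest in these libraries, at 205, 396 and 667 CPM in Teff2 and at 149, 501 and 728 CPM in Tex. The part of cell cycle genes and of this list in the difference was not tested.

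**Figure D4:**
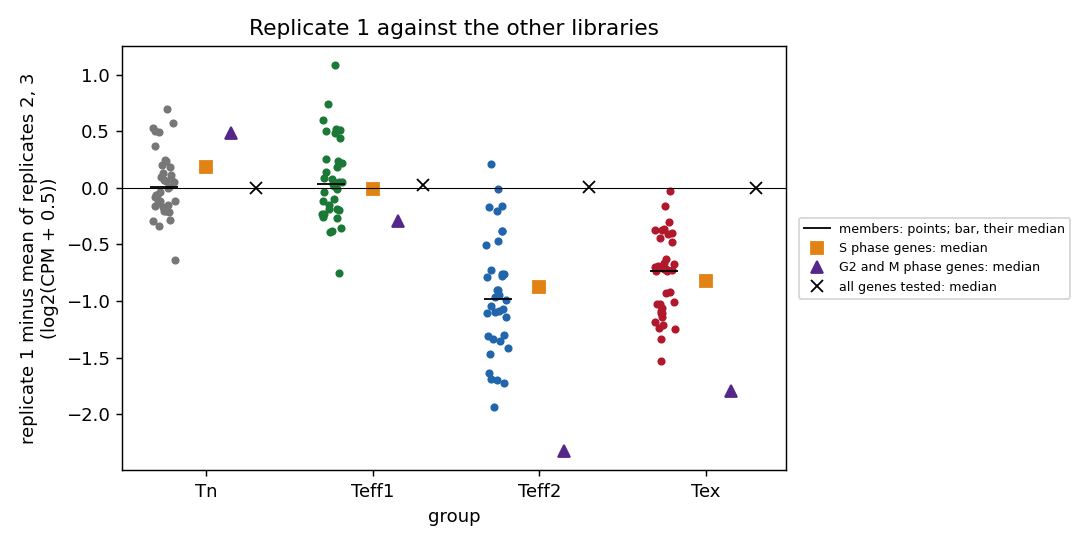
log2 level of replicate 1 minus the mean of replicates 2 and 3 in each group, for each of the 36 genes (points; bar, their median) and as medians of the S phase list, the G2 and M phase list and all genes tested. The genes centre on 0 in Tn and Teff1 and lie below 0 in Teff2 and Tex, where the G2 and M phase genes lie lower still.

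Single genes showed the same library. Rad54l stood at 27.7, 64.4 and 77.3 CPM in Teff2 and Chek1 at 27.5, 53 and 63.7 CPM, the first replicate far below the others in each. Fancd2 stood at 19.9, 77.5 and 78.1 CPM in Teff2 and Exo1 at 14.3, 52.8 and 42.2 CPM, again with replicate 1 the lowest. Mus81, Fance and Atrip differed little between the same libraries, and in Fance replicate 1 was the highest of Teff2.

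TIM-3+ and TIM-3- cells of day 5 did not differ in these genes beyond the spread. None of the 36 was called between Teff2 and Tex by edgeR, none had an unadjusted p under 0.05, and all 36 had overlapping libraries, where 2.46% of all genes separated upward and 2.35% downward. Over all genes 0.00698% rose and 0.0% fell, and the unadjusted p was under 0.05 for 251 of 14332. The median log2 fold change of the 36 was -0.06, and the smallest changes were those of Fancg (-0.01) and Exo1 (0.01), at 25.4, 34.2 and 33.1 CPM and 19.6, 48.8 and 41.7 CPM in Tex. Since same-numbered libraries of Teff2 and Tex deviated together, a fit within the 3 pairs bounds the difference more closely. It called 126 genes higher (0.962%) and 95 lower (0.725%) of 13096, and again none of the 36. Its median SE for these genes was 0.107, and the 95% intervals of all 36 lay between -0.54 and 0.50 on the log2 scale.

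Within those pairs, 9 of the 36 genes were lower in Tex in all 3 and 3 were higher in all 3. Of the 13096 genes in that fit, 18.6% were lower in all 3 pairs and 22% were higher. The 2 with an unadjusted p under 0.05 were Atr and Nbn. Atr stood at 71.2, 107 and 96.1 CPM in Teff2 and at 61, 74.9 and 83.2 CPM in Tex, lower in 3 of 3 pairs (log2 fold change -0.32, SE 0.09, adjusted p = 0.111). Nbn stood at 16.4, 27.8 and 27.6 CPM in Tex, also lower in 3 of 3 pairs (log2 fold change -0.31, SE 0.11, adjusted p = 0.194). The 3 that were higher in every pair, Rpa1, Rpa2 and Mus81, differed by at most 0.10 on the log2 scale.

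Against naive cells, most of these genes were still higher in both day 5 states. In Teff2 26 of 36 genes were called higher and 1 lower (all genes 25.6% and 23.3%), and in Tex 25 higher and 1 lower (all genes 27.3% and 25.6%); the median log2 fold changes were 1.30 and 1.27. These comparisons share the Tn libraries with the day 2 comparison and are not independent of it. With Tn replicates 1 and 3 left out, the medians were 1.22 and 1.21. In all 3 comparisons 25 genes were called higher and Mus81 lower. Rad54l, Rad51ap1, Exo1 and Fancd2 had the largest called rises in both, with log2 fold changes of 4.97, 4.59, 4.44 and 4.44 in Teff2 and of 4.85, 4.54, 4.45 and 4.34 in Tex. Their levels in Tex were 30.7, 56.5 and 68.5 CPM for Rad54l, 26.6, 57.2 and 58.4 CPM for Rad51ap1 and 26.7, 62.4 and 74.6 CPM for Fancd2. Rad51ap1 in Teff2 stood at 22.2, 54.1 and 72 CPM.

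By group mean, 30 of the 36 genes were highest in Teff1, 3 in Tn, 2 in Tex and 1 in Teff2. That order rested partly on the low first replicates: without the first replicates of the 3 activated states, a setting chosen after seeing the data, 18 were highest in Teff1, 13 in Teff2, 3 in Tex and 2 in Tn. In 5 genes the call against Tn differed between the days, and for none of them was the change from Teff1 to Teff2 itself called. Without those first replicates Fancb, Nbn and Rad51c were called higher than Tn in Teff2, and the same genes and Atr in Tex, while Rpa1 was not called in either. Over all libraries Fancb and Rad51c narrowly missed it at day 5, with adjusted p of 0.0548 and 0.0591 in Teff2 and of 0.0585 and 0.0673 in Tex. Fancb stood at 4.34, 11 and 14 CPM in Teff2 and at 4.72, 11.5 and 12.3 CPM in Tex, and replicate 1 was at the naive level in both. Rad51c stood at 3.01, 3.81 and 7.36 CPM in Teff2 and at 2.86, 3.4 and 7.28 CPM in Tex, with replicate 3 the highest.

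Nbn had a log2 fold change of 0.58 against Tn in Teff2 (SE 0.28, adjusted p = 0.101) and of 0.26 in Tex (SE 0.28, adjusted p = 0.449), and replicate 1 of each lay within or below the naive range. Rpa1 was not called at day 5, with 0.10 in Teff2 (SE 0.19, adjusted p = 0.674) and 152, 206 and 186 CPM in Tex (log2 fold change 0.16, SE 0.19, adjusted p = 0.503). Atr was called in Teff2 (log2 fold change 0.52, SE 0.18, adjusted p = 0.0291) but not in Tex (0.20, SE 0.18, adjusted p = 0.365). Its call in Teff2 was lost without any 1 of the 3 Tn libraries or without Teff2 replicate 2 or 3 (adjusted p of 0.0695 to 0.0788). Fance and Atrip stayed uncalled, with Atrip at 25, 26.8 and 23.7 CPM in Teff2 and 21.2, 30.3 and 26.2 CPM in Tex and Fance at 29.6, 36.4 and 25 CPM in Tex.

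Palb2 and Fancm were called at day 5 but not without some libraries. Palb2 stood at 8.29, 9.26 and 9.94 CPM in the naive libraries, at 11.6, 23.7 and 27 CPM in Teff2 and at 10.4, 25.9 and 21.5 CPM in Tex. Its rise was not called in Teff2 without Tn replicate 1 or Teff2 replicate 3 (adjusted p = 0.0525 and 0.0623), nor in Tex without Tn replicate 1 or 2 or Tex replicate 2 or 3 (adjusted p of 0.0533 to 0.0929). Fancm stood at 21.5, 21.7 and 21.1 CPM before stimulation and at 31.3, 35.5 and 46.1 CPM in Tex, and was not called in Tex without Tex replicate 3 (adjusted p = 0.056).

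Some of these counts rest on gene models that overlap a neighbour in the annotation, and the strand setting of the counting is not given in the sources used here. Rad54l (chr4:116094261-116123700) shares 2849 bases with Lrrc41, Rad54b shares 8141 with Fsbp, Fanca 4258 with Zfp276, Fanci 4036 with Polg, Xrcc3 4653 with Klc1 and Eme1 252 with Lrrc59. Of the genes near 0, Fancc shares 24763 bases with the protein-coding Aopep and Atrip 14351 with the non-coding Atrip-trex1, and Atr shares 11173 with the non-coding Gm16794. Reads from those stretches may belong to either gene, so the values of these genes are uncertain to that extent. Mus81 (chr19:5482561-5488389), Chek1 (chr9:36708482-36726658), Brca1 (chr11:101488761-101551955) and Fance (chr17:28313530-28326574) overlap no other annotated gene (GRCm38.p6).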

How the data were processed

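Values came from deposited whole-number counts per gene of 12 RNA-seq libraries; a second table deposited by the authors holds normalized values on a log2 scale with no stated transformation and was used only as 1 of the alternatives. Per the submitters' processing notes, the series used mm10, HISAT2, HTSeq and DESeq2, and also BWA and Juicer, with no versions or settings. The 4 Hi-C samples were not analysed here, and 1 gene of the comparison lists is counted but not reported by name. All columns were mapped to libraries by name.

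Counts were tested in R 4.3.3 with edgeR 4.0.16: TMM factors, edgeR's expression filter (14332 genes), group as the only term over all 12 libraries, and Benjamini-Hochberg adjustment over all genes tested. A gene was called at an adjusted p under 0.05. SE is the log2 fold change divided by the square root of F, and 95% intervals use the t quantile at edgeR's total degrees of freedom. CPM used TMM-scaled library sizes. The procedure was tested on simulated counts. Promoters and coordinates came from RefSeq (GRCm38.p6).

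The correlation of deviations from group means for same-numbered Tex and Teff2 libraries was 0.85, 0.78 and 0.75 (at most 0.119 otherwise), so these were treated as 3 pairs in an alternative fit. In the other 4 comparisons at least 1 same-numbered pair was under 0.1. For Teff2 and Teff1 the same-numbered values were 0.507, 0.243 and 0.029, and the highest of the others was 0.505.

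The genes, lists and tests were chosen with earlier results of these data known. Values in every library are given, per comparison, for the 4 called genes with the largest rise, those that fell, the 2 with the smallest change, and genes whose call differs between days or under an alternative; the remainder appear as counts, ranges and examples. Alternatives were upper-quartile scaling, no expression filter, a replicate block, each library left out, libraries that stand apart left out, only the 6 libraries of the groups compared, DESeq2 1.42.0, and limma 3.58.1 on the deposited log2 values.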

Additional observations from a re-analysis of the deposited data

How the results depend on the processing

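The counts of genes called higher against Tn came to 30 for Teff1, 26 for Teff2 and 25 for Tex. In that order they were 30, 25 and 25 under upper-quartile scaling, which moved the median log2 fold change of all genes by -0.14, -0.11 and -0.12, and ended the call of Atr in Teff2. They were 30, 27 and 26 with no expression filter, 31, 28 and 27 with DESeq2, 30, 26 and 25 with limma on the deposited log2 values, and 32, 27 and 26 with only the 6 libraries of each comparison. With the replicate block over all 12 libraries they were 31, 27 and 26. Of all genes tested, 24.5%, 25.6% and 27.3% were called higher in the main fit. The shares were 21.1%, 22.8% and 24.3% under upper-quartile scaling and 16.1%, 16.2% and 17.5% with no expression filter. They were 26.1%, 26.6% and 28.2% with DESeq2 and 24%, 24.6% and 26.7% with limma. With only the 6 libraries they were 27.5%, 24.7% and 27.6%, and with the block 27.3%, 27.9% and 29.8%. The labels do not say whether replicate numbers pair the libraries in these comparisons with Tn. Correlations of same-numbered libraries ran from 0.005 to 0.136 there, which does not settle it. The block within the 3 day 5 pairs gave 0 of 36 genes called between Tex and Teff2 in either direction, while it called 126 higher and 95 lower of all 13096 genes.

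Leaving out each library in turn gave 27 to 29, 24 to 30 and 23 to 27. The shares of all genes called higher were then 19.7% to 23.6%, 20.7% to 25.5% and 22.6% to 26.3%. Without the first replicates of the 3 activated states the counts were 32, 31 and 31. The shares of all genes called higher also rose, to 28.4%, 30.3% and 32.1%. With Tn replicates 1 and 3 both left out, the libraries with the most transcripts of other cells, they were 20, 16 and 16, and the lone naive library is assumed to vary like the other groups; all genes called higher then fell to 9.96%, 11.3% and 13.1%, while the median log2 fold changes of the 36 genes were 1.59, 1.22 and 1.21. The 10 calls that ended in Teff1 were those of Atr, Fancb, Fancf, Mre11a, Nbn, Palb2, Rad51c, Rpa1, Topbp1 and Xrcc3. Mus81 was the single gene called lower against Tn in each of these settings, and 0 genes were called between Teff1 and Teff2 or between Teff2 and Tex. No called fold change turned its sign. With 3 libraries a group, the median SE of 0.33 on the log2 scale limits what could be called.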
